A study of Mus musculus with 2 samples.

Results

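The barcodes described here are the 113 of 35330 in testis single-cell libraries that meet a rule on smooth muscle genes. A member has at least 2000 UMIs (unique molecular identifiers, 1 per captured transcript), at most 20% mitochondrial UMIs and under 15% of UMIs from Prm1, Prm2, Tnp1 and Tnp2, the genes that pack spermatid DNA. It also has at least 20 UMIs summed over 7 contractile genes (Acta2, Myh11, Tagln, Myl9, Cnn1, Actg2 and Des), more than over 6 mesenchymal or 6 endothelial genes. The rule was meant to collect peritubular myoid and smooth muscle cells. The members were chosen by these measured UMI counts, so the levels of these genes in them are a description and support nothing further.

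The study made 10x Genomics droplet libraries of polyA RNA from the testes of mice aged 8 months, 1 from mice labelled wild type and 1 labelled Igf2bp1 KO, a loss of the mRNA-binding protein IGF2BP1. The series text calls the knockout conditional, and its Cre driver, its strain and which exons were removed are not stated in the sources used here. Each genotype is 1 library, so no difference between them has a replicate check, and intervals cover counting error only. The tissue was digested with collagenase, hyaluronidase, trypsin and DNase and strained before loading, per the labels' protocols.

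Peritubular myoid cells form a thin contractile sheet around each seminiferous tubule, lay down its basement membrane together with Sertoli cells, and secrete factors that maintain spermatogonial stem cells. Vascular smooth muscle cells and pericytes wrap the testicular vessels. Both use the same contractile machinery, in which Acta2 and Actg2 encode smooth muscle actins, Myh11 the smooth muscle myosin heavy chain, Myl9 a regulatory light chain, Tagln and Cnn1 actin-binding proteins, and Des the intermediate filament desmin. Mgp encodes a matrix protein that blocks mineral deposition.

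The data went against the name for most members. Of the 113 members, 74 lay in the wild type library and 39 in the knockout library. All 74 wild type members and 15 knockout members held more UMIs of Actg2 than of the other 6 contractile genes together. The remaining 24, all from the knockout, held at least as many UMIs of the other 6 genes. They are called the 24 contractile-gene barcodes below, and the others the Actg2-led barcodes. This division was made after the values were seen.

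Wild type members did not carry the markers of the name. Myl9 and Mgp were at 0 in all 74, Acta2 had a UMI in 9 (17 UMIs in all), Tagln in 5 and Myh11 in 2. The 24 contractile-gene barcodes carried 4 of the 5 markers: Acta2 was found in all 24, Tagln and Myl9 in 23 each and Myh11 in 16, while Mgp was found in 9. In the same 24, 15 barcodes held all of Acta2, Tagln, Myl9 and Myh11, 8 held 3 of them and 1 held 2. In wild type 60 of 74 members held none of the 4, 12 held 1 and 2 held 2.

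Serum response factor, with its partner myocardin, is known to switch on smooth muscle genes through a site called the CArG box, in which 6 bases of A or T lie between a pair of C and a pair of G. RefSeq promoters (build GRCm38.p6) matched 4 of the 7 contractile genes, Acta2, Myl9, Cnn1 and Des. In the 250 bases before the start, Myl9 held 1 exact box and 1 box with 1 other base in the core, and Acta2 held 2 of the latter kind. Cnn1 and Des held neither form in that window. Nor did Mylk, Tpm1, Tpm2, Cald1, Mustn1 and Lmod1, muscle genes outside the rule whose promoters were also searched. The start is the RefSeq one. GENCODE M21 begins Acta2 further upstream (chr19:34241090-34255590, minus strand), so both Acta2 sites lie inside that span of the gene. The sites are shown with 10 bases on either side, 5′ to 3′, because Acta2 and Myl9 are the markers of the name whose promoter held a match; capitals mark the box.
Acta2, 84 bases before the start (minus strand, chr19:34255438-34255467): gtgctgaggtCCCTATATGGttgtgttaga
Acta2, 34 bases before the start (minus strand, chr19:34255388-34255417): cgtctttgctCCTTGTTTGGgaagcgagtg
Myl9, 161 bases before the start (plus strand, chr2:156775293-156775322): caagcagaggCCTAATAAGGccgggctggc
Myl9, 99 bases before the start (plus strand, chr2:156775355-156775384): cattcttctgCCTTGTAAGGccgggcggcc
An exact box was found in 1.47% of 32851 such windows, and a box with at most 1 other base in 8.59%, so a match is a description of the sequence and not a site of binding. The box reads as itself on the other strand, so 1 search covers both strands.

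**Figure D1:**
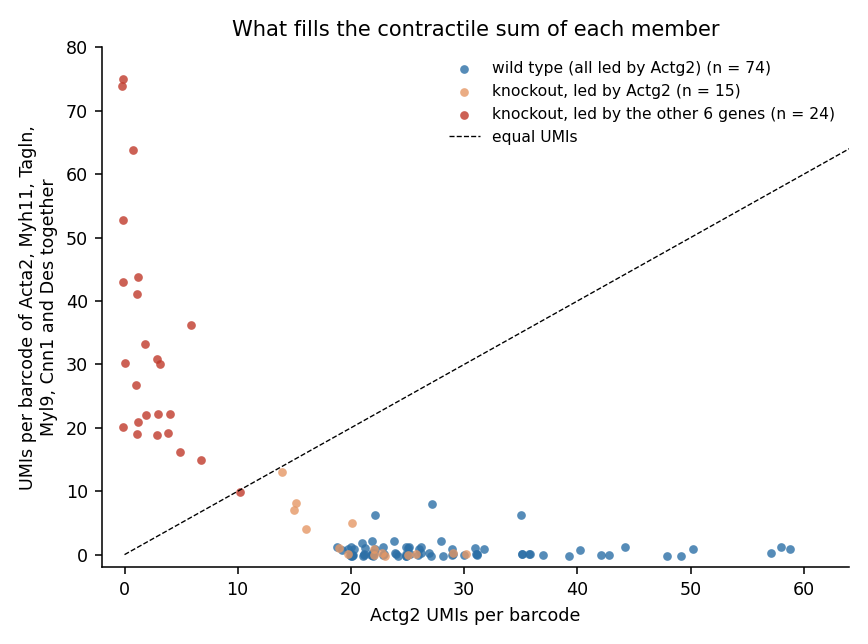
Each point is 1 of the 113 member barcodes; the x axis gives its Actg2 UMIs and the y axis its UMIs of Acta2, Myh11, Tagln, Myl9, Cnn1 and Des together (points are shifted by under 1 UMI to show overlaps). The 74 wild type members lie along the x axis at 19 to 59 Actg2 UMIs, and 24 knockout members lie on or above the dashed line of equal UMIs.

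Actg2 itself was not restricted to a few barcodes in either library. Among barcodes within the UMI and mitochondrial limits, it had a UMI in 74.3% of wild type and 68.2% of knockout barcodes, while Acta2 had one in 2.25% and 7.65%. Over whole libraries Actg2 held 27966 wild type and 22662 knockout UMIs, and Acta2 held 194 and 1552. Members held 7.58% of the wild type Actg2 UMIs and 1.66% of the knockout ones. In the lowest 10% of barcodes by UMIs, which serve here as a reading of free RNA, Actg2 stood at 324 CPM (UMIs per 1000000) in wild type and 285 CPM in the knockout. The other 6 genes together stood at 7.61 and 20.01 CPM there.

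Members were 1.43% (exact 95% interval 1.13 to 1.80) of the 5164 wild type barcodes within the UMI and mitochondrial limits, and 0.429% (0.305 to 0.586) of the 9098 knockout ones. The log2 ratio of knockout over wild type was −1.74 (−2.34 to −1.16). The direction of this ratio depended on whether Actg2 was counted. With Actg2 left out of the sum the rule found 18 knockout barcodes (0.198%, 0.117 to 0.313) and 0 wild type barcodes (exact upper 95% limit 0.0714%). With the wild type count set to a floor of 3, a share of 0.0581%, the log2 ratio was 1.77 (lower 95% limit 1.32). With the 7 genes required to reach 1% of UMIs, it found 7 knockout and 0 wild type barcodes, a log2 ratio of 0.41 against the floor with a lower 95% limit of −0.29, which lies below 0. The libraries differed in depth within these limits, with median UMIs of 17433.5 for wild type and 6513.5 for the knockout, and the limit of 20 UMIs does not scale with depth.

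Near the limit of 20 UMIs the same division held. In wild type 29 members had a sum of 20 to 24 and 71 barcodes just outside had 15 to 19, and Actg2 led in all of them. In the knockout 18 members had a sum of 20 to 24, of which Actg2 led 9, and 40 barcodes had 15 to 19, of which Actg2 led 24. No barcode was lost to a mesenchymal or endothelial sum at least as high. The spermatid limit of 15% removed 100 wild type and 21 knockout barcodes with a sum of at least 20. Of the member barcode sequences, 1 from wild type also occurred in the knockout library, among 106 sequences that the 2 libraries shared in all, and none was a member in both.

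**Figure D2:**
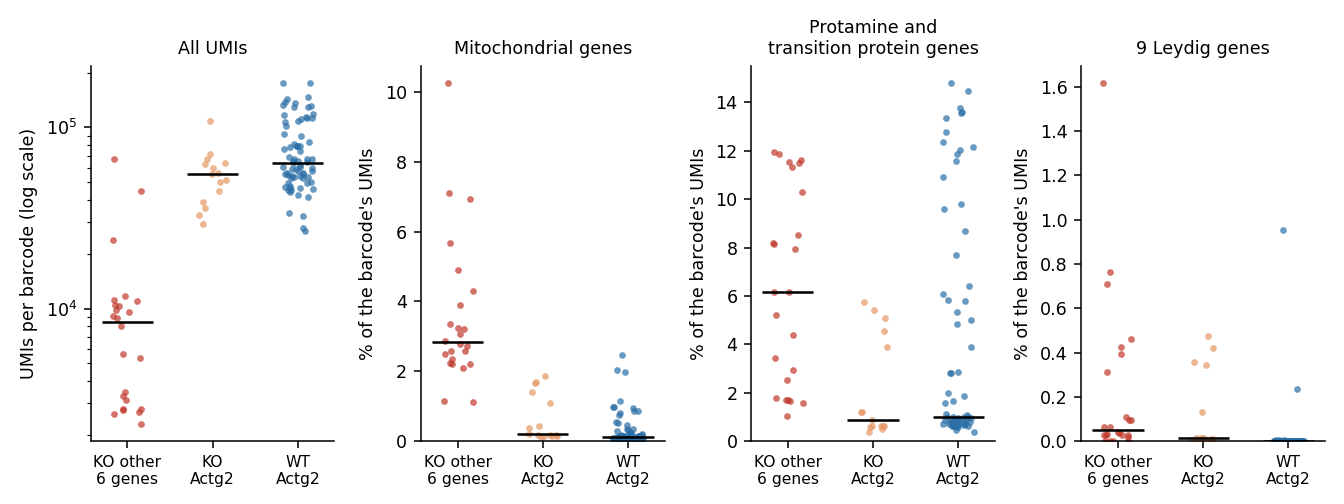
Each point is 1 member; the panels give its UMIs (log scale) and the percent of its UMIs from mitochondrial genes, from Prm1, Prm2, Tnp1 and Tnp2, and from 9 Leydig genes, for the 24 contractile-gene barcodes, the 15 knockout and the 74 wild type Actg2-led barcodes, with the median as a line. In depth the Actg2-led barcodes of the knockout and wild type have medians of 55205 and 63769 UMIs, against 8441.5 UMIs in the 24.

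The 24 contractile-gene barcodes held Acta2 as their most abundant rule gene, with a lowest, median and highest count of 3, 11.5 and 42 UMIs. Tagln ran from 0 to 21 UMIs (median 8), Myl9 from 0 to 13 (median 7) and Myh11 from 0 to 25 (median 1.5). Des was found in 15 barcodes with at most 4 UMIs and Cnn1 in 6 with at most 2. Actg2 ran from 0 to 10 UMIs (median 1.5), and in 1 barcode its 10 UMIs equalled the sum of the other 6 genes. Summed over the 24, Acta2 stood at 1158 CPM (exact Poisson 95% interval 1034 to 1293) against 13.6 CPM in the 9059 knockout barcodes outside the rule. Actg2, the gene that filled the sum in wild type members, stood at 213 CPM (161 to 275) against 223 CPM. The division placed members led by Actg2 in the other set, so this level is partly set by it and is a description.

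Genes that the rule did not use followed the same picture. A gene was counted as higher in the 24 when its CPM was at least 2-fold that of the other knockout barcodes and it had at least 10 UMIs. Of 17033 genes with at least 50 UMIs over both sets, called placed below, 1.96% met this, and a gene with few UMIs in all cannot. Of 25 other contractile genes listed, 22 were placed and 14 met it. Tpm1 and Tpm2, the tropomyosins that lie along actin filaments, stood at 315 CPM (252 to 389) and 154 CPM (111 to 208) against 17.6 and 6.56 CPM. Mylk, the kinase that phosphorylates the regulatory light chain and so starts contraction, stood at 403 CPM (331 to 486) against 36.6 CPM. Cald1, the actin-binding protein caldesmon, stood at 224 CPM (171 to 287) against 15.3 CPM. Flna, an actin crosslinker, was 16.7-fold and Csrp1, a LIM protein of muscle, 15.6-fold the level of the other barcodes. Lmod1, which nucleates actin filaments in smooth muscle, had 13 UMIs in 10 barcodes and was 41.4-fold. Smtn (20.6-fold), Pdlim3 (28.0-fold) and Cav1 (15.3-fold) were also past the limit, each on 11 to 13 UMIs. Vcl, at 2.40-fold on 10 UMIs, was the lowest of the 14. Kcnmb1 and Ldb3 were at 0 in all 24 barcodes, and Pln, the regulator of the sarcoplasmic calcium pump, stood at 117 CPM against 91.5 CPM.

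Ranked by fold over the other knockout barcodes among genes with at least 20 UMIs, the 24 were led by Mustn1 at 91.9-fold (40 UMIs in 14 barcodes), a small nuclear protein of muscle and vessel wall. Myh11, Acta2, Tagln, Des and Myl9, which the rule used, took the next places at 90.7 to 38.0-fold. Tpm2, Pcp4l1, Tpm1, Flna, Csrp1, Cald1, Palld and Mylk followed at 23.5 to 11.0-fold. Id3, an inhibitor of helix-loop-helix factors, stood at 216 CPM against 23.9 CPM (log2 3.18, 2.78 to 3.55). Timp3, an inhibitor of matrix proteases, stood at 158 CPM against 18.9 CPM (log2 3.06). Genes of another class also stood in this ranking: Cst12, a cystatin of Sertoli cells, was 3.88-fold. Endothelial genes outside the rule, 9 in all, summed to 172 CPM (127 to 229) in the 24 against 27.8 CPM. Of these, 7 were placed and 1 met the limit.

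Markers of vessel mural cells were present. Of 16 such genes listed, 13 were placed and 3 met the limit: Mustn1, Rgs5 and Higd1b. Rgs5, a damper of G-protein signals that marks pericytes, stood at 44.0 CPM (22.7 to 76.8; 12 UMIs in 8 barcodes) against 2.94 CPM. Higd1b had 11 UMIs in 4 barcodes, 40.3 CPM against 1.06 CPM. Notch3, the receptor of arterial smooth muscle, had 6 UMIs in 6 barcodes (22.0 CPM against 0.47 CPM), and Cox4i2 had 8 UMIs in 5 barcodes. Kcnj8 was at 0. Ndufa4l2, on the same list, stood at 150 CPM against 133 CPM and at 147 CPM in the lowest 10% of barcodes, so it did not part the 24 from free RNA.

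Summed over their lists, 14 basement membrane genes stood at 286 CPM and 23 other matrix genes at 1624 CPM in the 24. The 25 other contractile genes summed to 2573 CPM. Single matrix genes, such as Igfbp7 and Sparc, lay at the levels of leading contractile ones. Of 14 basement membrane genes 4 met the limit: Col4a1 (44.0 CPM against 6.01), Col4a2 (58.6 against 6.43), Lamb2 (47.7 against 9.04) and Col18a1 (55.0 against 2.68). Of the 15 Col18a1 UMIs, 10 came from 1 barcode. Of 23 other matrix genes 18 were placed and 6 met the limit, among them Igfbp7 at 374 CPM (305 to 454) against 85.5 and Sparcl1 at 136 CPM (95.5 to 187) against 23.0. Sparc stood at 444 CPM against 202 CPM, and 59 of its 121 UMIs came from 1 barcode. Mgp, the fifth marker of the name, had 18 UMIs, 66.0 CPM (39.1 to 104) against 26.1 CPM. Of 18 adhesion genes 17 were placed and 5 met the limit: Dag1, Itgb1, Lims1, Pxn and Zyx, at 3.38 to 5.39-fold.

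Signals and receptors known from myoid cells were rare at this depth. Of 17 niche signals 14 were placed and 2 met the limit, Cxcl12 (11 UMIs, 2.04-fold) and Kitl (10 UMIs, 3.68-fold), the ligand of the KIT receptor. Gdnf, the growth factor that maintains spermatogonial stem cells, had 1 UMI, Csf1 had 1 and Igf1 had 3. Among genes of the hedgehog and PDGF pathways none of 7 placed met the limit: Gli1, the hedgehog target gene, had 2 UMIs and Pdgfrb 6 in 5 barcodes. The orphan receptor Nr2f2 had 14 UMIs in 10 barcodes, 51.3 CPM (28.1 to 86.1) against 11.7. Ednrb, an endothelin receptor, had 6 UMIs in 3 barcodes. Of 15 muscle regulators 11 were placed and 1 met the limit, Mef2c at 91.6 CPM against 20.7; Myocd had 1 UMI and Srf 8.

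Immediate early genes were also above the other knockout barcodes, with 9 of 20 past the limit. Fos stood at 601 CPM (513 to 701) against 208, Atf3 at 165 CPM against 42.0, Nr4a1 at 110 CPM against 25.6 and Klf2 at 194 CPM against 68.6.

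**Figure D3:**
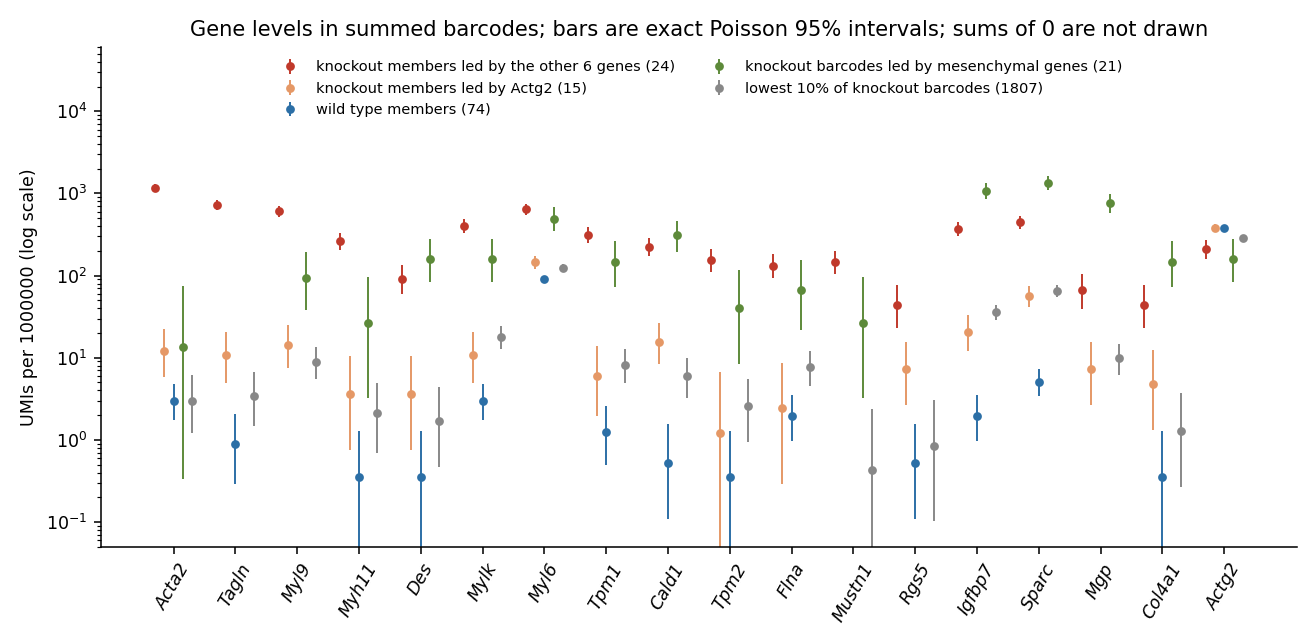
Levels of 18 genes in UMIs per 1000000 (log scale) after summing the UMIs of the barcodes of each set, with exact Poisson 95% intervals; a gene with 0 UMIs in a set has no point. Acta2, Tagln, Myl9 and Myh11 lie far higher in the 24 contractile-gene barcodes than in any other set, Igfbp7, Sparc and Mgp lie higher in the mesenchymal barcodes, and Actg2 lies between 161 and 385 CPM in all 5 sets.

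Knockout barcodes in which the mesenchymal sum was the highest, under the same limits, numbered 21 with 74718 UMIs. The choice of both sets by their markers fixed the contrast in those genes. Of genes outside both choices, Igfbp7 stood at 374 CPM in the 24 and 1071 in the mesenchymal barcodes, Serping1 at 66.0 and 1178, Gsn at 51.3 and 1994, and Igf1 at 11.0 and 1044. Mylk stood at 403 and 161 CPM, Tpm1 at 315 and 147, and Cald1 at 224 and 308. The sum of the 24 is mostly that of 15 deeper barcodes, which held 247011 of its 272819 UMIs. In the 9 under 4000 UMIs, described below, Cald1 stood at 1279 CPM (880 to 1796) and Igfbp7 at 1937 CPM (1438 to 2554). Both lay above the mesenchymal barcodes, while Igf1 at 38.7 CPM stayed below them. Mgp stood at 66.0 CPM in the 24 and 77.5 CPM in the 9, against 763 CPM in the mesenchymal barcodes, which places this marker of the name with the latter. The immediate early genes summed to 3310 CPM in the 24 and 15244 CPM in the mesenchymal barcodes. Within the 24 they took from 0.0665 to 2.43% of a barcode's UMIs. Fos, the one with most UMIs, stood at 3332 CPM in the 9 and 316 CPM in the 15, so the sum of the 24 depends on its deeper barcodes. The lower sum in the 24 therefore does not place the 9 below the mesenchymal barcodes in these genes. The mesenchymal barcodes had a median of 3039 UMIs, against 8441.5 in the 24 and 2783 in the 9.

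Depth divided the 24 contractile-gene barcodes into 9 with 2305 to 3450 UMIs and 15 with 5340 to 67224 UMIs, a gap that was seen in the data. The 6 genes took 0.712 to 3.25% of all UMIs in the 9 shallow barcodes (median 1.55%) and 0.0223 to 0.450% in the 15 deeper ones (median 0.248%). The rule asks for at least 20 contractile UMIs at any depth, which keeps the share of a shallow member high. That these ranges do not overlap is thus partly set by the rule and the split by depth, and supports nothing further. This quantity has the total in its denominator. In UMIs, the 6 genes ran from 20 to 75 (median 44) in the 9 and from 10 to 36 (median 22) in the 15, so the 9 held more of them on fewer UMIs.

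The 9 shallow barcodes carried little RNA of other classes. Their spermatid share had a median of 1.77% (1.57 to 7.93), against 4.69% in the lowest 10% of knockout barcodes, and 8 of the 9 lay below that reading. Leydig UMIs ran from 0 to 3, and Sertoli and macrophage UMIs were at most 1. Acta2 summed to 7207 CPM in them, Tagln to 4650, Myl9 to 2712, Mylk to 2596, Tpm1 to 1937, Myh11 to 1899 and Des to 581 CPM. Myh11 was uneven: 25 of its 49 UMIs came from 1 barcode and it was at 0 in 2. The mural genes summed to 3332 CPM (2665 to 4115) and had at least 3 UMIs in 8 of the 9. Higd1b (11 UMIs), Pdgfrb (6) and Cspg4 (4) were seen in the 9 and at 0 in the 15. Igfbp7 had 50 UMIs and was seen in all 9, and Mgp had 2 UMIs in 1 barcode. That barcode held 32 Acta2 UMIs, none of Mylk or Myh11 and none of the 16 mural genes.

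**Figure D4:**
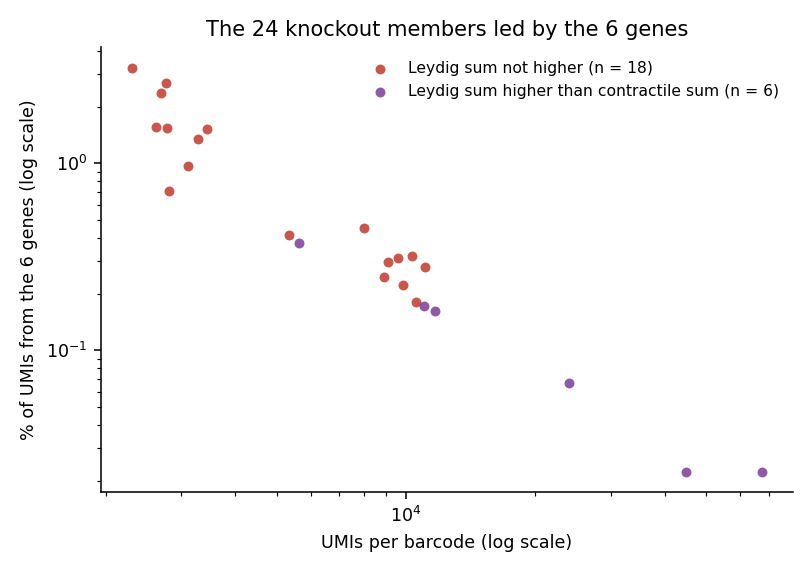
Each point is 1 of the 24 contractile-gene barcodes; the x axis is its UMIs and the y axis the percent of them from the 6 contractile genes other than Actg2 (both log scales), which is that count over the x value. The 9 barcodes under 4000 UMIs lie at 0.712 to 3.25%, and the 6 with a Leydig sum above the contractile sum are among the 15 deeper ones.

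The 15 deeper barcodes carried other classes beside the contractile genes. Their spermatid share had a median of 8.52% (1.04 to 11.9). Leydig UMIs ran from 2 to 285, and exceeded the contractile sum in 6 barcodes, with 43 to 285 Leydig UMIs each. One further barcode held 157 of the 218 Sertoli UMIs of the 24, and the 4 Sertoli genes past 2-fold in the 24 (Aard, Amhr2, Cldn11 and Cst12) include 68 of 85 Cst12 UMIs from a single barcode. Acta2 stood at 526 CPM in the 15, Tagln at 324, Myl9 at 393 and Mustn1 at 76.9 CPM, each above its level in the remaining knockout barcodes. The mural genes stood at 267 CPM (207 to 340). Of their 66 UMIs, 31 were of Ndufa4l2, which did not part the 24 from free RNA, and 19 were of Mustn1. Rgs5 had 4 UMIs. The part of these other classes in the levels of the 15 was not tested.

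Over all members, 11 of 39 knockout members (28.2%, 15.0 to 44.9) held more Leydig than contractile UMIs, 6 of the 24 contractile-gene barcodes and 5 of the 15 Actg2-led ones. In wild type these were 2 of 74 (2.70%, 0.329 to 9.42). Insl3, the hormone that Leydig cells secrete, is the Leydig gene with most UMIs and ran up to 193 UMIs in 1 of the 24. In the lowest 10% of barcodes the 9 Leydig genes stood at 730 CPM in the knockout and 117 CPM in wild type, so the background itself differed between the libraries.

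The Actg2-led barcodes were deep in both libraries. Wild type members held 26881 to 176659 UMIs (median 63769). Of the 74, 69 lay in the top 10% by UMIs of the 5164 wild type barcodes within the UMI and mitochondrial limits. Knockout Actg2-led members held 29358 to 109134 UMIs (median 55205). Actg2 ran from 19 to 59 UMIs in wild type (median 25) and from 14 to 30 in the knockout (median 22), with a sum of 375 CPM and 385 CPM, a log2 ratio of 0.04 (−0.14 to 0.21). The other 6 genes together had a median of 0 UMIs in both, with a highest of 8 in wild type and 13 in the knockout. In the knockout, 9 of 15 held none of Acta2, Tagln, Myl9 and Myh11, and 5 held 3 or 4 of them, against 0 of 74 in wild type. The median mitochondrial share was 0.127% in wild type and 0.195% in the knockout, against 2.84% in the 24 contractile-gene barcodes.

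Spermatid genes were abundant in these barcodes, but their sum was not above that of the other barcodes of the same library. The 12 spermatid genes outside the rule summed to 12964 CPM in wild type members and 13153 CPM in the other wild type barcodes, with 2 genes past 2-fold higher and 2 lower, and the 4 protamine and transition protein genes that the rule caps were all lower. In the knockout Actg2-led barcodes the 12 summed to 10475 CPM, against 11510 CPM in the other knockout barcodes, with 0 higher and 1 lower. Ranked by fold over the other wild type barcodes, the 74 were led by Cntnap5a (5.49-fold), Klf5 (5.46-fold), Vgll3, Asb15 and Samt3, and the first 20 also held Saxo1, a microtubule protein of the sperm tail, and Tex29, a testis-expressed gene at 469 CPM. No contractile gene stood among these 20. In the knockout Actg2-led barcodes Klf5 (3.44-fold), Saxo1, Adam29 and Spaca4, which encodes a sperm membrane protein at 980 CPM, were among the first 20. Acrv1 and Spaca1, which encode proteins of the acrosome, stood at 344 and 589 CPM in wild type members. Smcp, a protein of the sperm mitochondrial sheath, stood at 4417 CPM there, close to the 4448 CPM of the other wild type barcodes. Of genes over the other barcodes, 11.6% of 15835 were past 2-fold with at least 10 UMIs in wild type and 4.58% of 17038 in the knockout. Of the 25 other contractile genes, 18 were placed in wild type, with 2 higher and 6 lower, and 22 in the knockout Actg2-led barcodes, with 1 higher and 6 lower.

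The spermatid share of Actg2-led barcodes had a median of 0.992% (0.393 to 14.8) in wild type and 0.883% (0.388 to 5.77) in the knockout. In wild type 45 members lay under 2% and 29 between 2 and 15%. Those under 2% held Acrv1 at 420 CPM, Piwil1 at 11.7 CPM and Prm1 at 2811 CPM. Those between 2 and 15% held Acrv1 at 240 CPM, Piwil1, a piRNA-binding protein of spermatocytes and round spermatids, at 100 CPM, and Prm1 at 36543 CPM. Actg2 stood at 393 CPM (372 to 415) in the first set and 351 CPM (327 to 375) in the second.

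**Figure D5:**
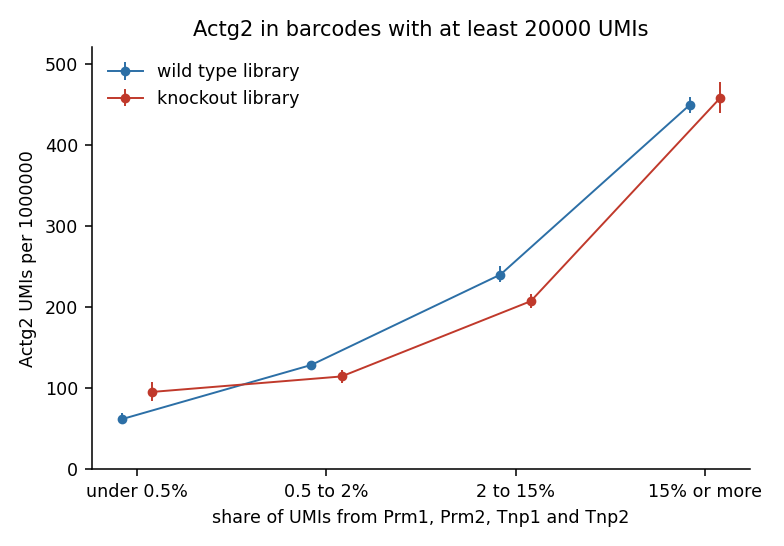
Actg2 level (UMIs per 1000000, summed over barcodes, with exact Poisson 95% intervals) in all barcodes with at least 20000 UMIs within the mitochondrial limit, by the share of UMIs from Prm1, Prm2, Tnp1 and Tnp2, for each library. The level is 61.8 and 95.4 CPM under 0.5% and 449 and 457 CPM at 15% or more.

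Over deep barcodes in general Actg2 was higher where the spermatid share was higher. In barcodes with at least 20000 UMIs, wild type Actg2 stood at 61.8 CPM under a share of 0.5%, 129 from 0.5 to 2%, 240 from 2 to 15% and 449 at 15% or more. The knockout values were 95.4, 114, 207 and 457 CPM. With the members left out, which was added after the values were seen, the wild type values were 53.3, 107, 203 and 449 CPM and the knockout values 90.4, 91.3, 204 and 457 CPM, where the intervals of the lowest 2 knockout bins overlap. Within the Actg2-led members, which were chosen by their Actg2 count, the level was instead lower at the higher share, at 411 CPM (360 to 468) under 2% and 329 CPM (264 to 405) from 2 to 15% in the knockout, beside the wild type values above. Acta2 stayed at or under 2.53 CPM in all 4 wild type bins and under 2 CPM in 3 knockout bins. In the knockout bin of 2 to 15% it stood at 25.7 CPM and the 6 other contractile genes at 76.4 CPM. The bins hold between 63 barcodes (knockout, under 0.5%) and 1164 (wild type, 0.5 to 2%). Actg2 lies on the minus strand of chromosome 6 (chr6:83512905-83536265, mm10, GENCODE M21) with no other gene across it. Acta2 lies on the minus strand of chromosome 19 (chr19:34241090-34255590), also alone. The last 400 bases of the main Actg2 and Acta2 transcripts shared none of their 341 runs of 60 bases with a transcript of another gene, so reads from this end are specific at that length. Tagln is crossed on the opposite strand by Pcsk7 and Gm48529 and Des by Gm15179, and no source used here states the strand setting of the counting.

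The targeted gene could not check the labels in the members. Igf2bp1 had 3 UMIs in knockout members (2.72 CPM, 0.561 to 7.95) and 21 in wild type members (3.71 CPM, 2.30 to 5.68), and the intervals overlap. Igf2bp2 had 0 UMIs in knockout and 1 in wild type members, and Igf2bp3 stood at 67.1 and 74.5 CPM. In the 24 contractile-gene barcodes Igf2bp1 had 1 UMI.

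Knockout members over wild type members compared unlike barcodes, since no wild type member was a contractile-gene barcode. Of 7691 genes with at least 50 UMIs in the sums of both libraries, 6.19% were at least 2-fold higher in the knockout and 3.04% at least 2-fold lower, 9.23% either way, with a median log2 ratio of 0.02. Of the 8 other contractile genes measured, 4 were higher and none lower, with a median log2 ratio of 1.12. Cald1 had 74 UMIs against 3 (log2 6.98, 5.38 to 9.29), Tpm1 91 against 7, Mylk 119 against 17 (log2 5.17, 4.43 to 5.99), and Timp3 51 against 2. Id3 had 70 UMIs against 0, which is 119.7-fold higher with the wild type sum set to a floor of 3 counts (lower 95% limit of the log2 ratio 6.57). Of the genes that chose the members, Myl9 had 179 UMIs against 0, Tagln 209 against 5, Acta2 326 against 17 and Myh11 74 against 2. No basement membrane gene reached 50 UMIs. Markers of other classes moved with this contrast: 6 of 6 Leydig and 3 of 3 Sertoli genes measured were higher, as were 11 of 13 immediate early genes. Their part in the result was not tested.

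Within the Actg2-led barcodes alone fewer contractile genes could be compared. Of 7451 genes, 3.13% were at least 2-fold higher in the knockout and 4.09% lower, 7.22% either way. None of 5 other contractile genes was past 2-fold in either direction, and their median log2 ratio was 0.11, beside 0.04 over all genes. Cald1, Mylk and Tpm1 were under the 50 UMIs required. Cald1 had 13 UMIs in the knockout (15.7 CPM, 8.35 to 26.8) and 3 in wild type (0.53 CPM, 0.11 to 1.55), and Mylk had 9 (10.9 CPM, 4.96 to 20.6) and 17 (3.01 CPM, 1.75 to 4.81). The 5 markers of the name summed to 48.2 CPM in the knockout and 4.24 CPM in wild type, and to 27.3 and 7.61 CPM in the lowest 10% of barcodes. The 12 spermatid genes outside the rule were all within 2-fold, with a median log2 ratio of −0.34, while 2 of the 4 protamine and transition protein genes were past 2-fold lower, with a median of −0.96. All 4 Leydig genes measured were higher, with Insl3 at 787 against 94.96 CPM (log2 3.05, 2.88 to 3.22). Lcn2, a secreted lipocalin, stood at 452 against 10.6 CPM. The knockout lowest 10% held Insl3 at 365 CPM and Lcn2 at 381 CPM.

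The naming rule took the 10 lowest ratios among genes at least 2-fold higher in wild type members than in the other wild type barcodes. Their number was thus set in advance, and they were chosen where wild type members are high. Over all 7691 genes, 3.04% were at least 2-fold lower in knockout members. The 4 of the 10 whose interval lay furthest from 0 follow, with their ratio within the Actg2-led barcodes. That second value shares the 74 wild type and 15 of the knockout members with the first, so it is no independent reading. Hemgn stood at 36.3 against 128 CPM (log2 −1.82, −2.32 to −1.36), and at log2 −1.69 within the Actg2-led barcodes. The histone gene Hist2h2aa1 stood at 88.0 against 240 CPM (−1.45, then −1.39), the cystatin Cst13 at 55.3 against 150 CPM (−1.44, then −1.57) and Fbxo47 at 11.8 against 42.1 CPM (−1.84, then −1.67). Slfn3 was higher in the knockout, at 78.0 against 25.3 CPM (1.63, then 1.65). These 2 sums differ in depth per barcode and in spermatid share, and the genotype cannot be told apart from the library.

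One wild type barcode resembled the 9 shallow knockout barcodes and fell outside the rule for its depth. It held 1328 UMIs, of which 53 came from the 7 genes: 24 of Acta2, 12 of Tagln, 9 of Myl9, 5 of Des, 2 of Myh11 and 1 of Actg2. It also held 9 UMIs of Mylk, 6 of Tpm1 and 3 of Cald1, no Leydig UMI and a spermatid share of 0.678%. Its mitochondrial share was 10.1%. One knockout barcode of 1846 UMIs fell outside in the same way, with 9 Acta2, 10 Tagln and 4 Myl9 UMIs. Both were found by lowering the UMI minimum to 1000.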

How the data were processed

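Each of the 2 libraries, 1 per genotype, came as a matrix of raw UMI counts per gene and barcode, whole numbers per the file headers. The deposited counts were made with Cell Ranger 2.2.0 and STAR on mm10, per the submitters' processing notes, while the file headers carry software version 3.1.0. No source used here says how the authors called cells or counted strands. Libraries hold 17362 (wild type) and 17968 (knockout) barcodes, with 121257944 and 98033324 UMIs, a median of 1242 and 2097 UMIs and a lowest of 943 and 1246. No doublet caller was run, and no barcode was removed beyond the limits of the rule.

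Raw UMIs were summed over barcodes and given as CPM, with exact Poisson 95% intervals. Shares carry Clopper-Pearson intervals and ratios exact conditional binomial intervals (scipy 1.17.1). A sum or share of 0 was set to a floor of 3 counts in a ratio. UMIs mark molecules, and intervals and floors cover no more than counting error. With 1 library per genotype there is no p-value. Knockout and wild type sums were compared for genes with at least 50 UMIs, and past 2-fold is a description. The code was tested on simulated counts with 200 changed genes.

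Genes are named by a rule: the rule genes, Mgp and the Igf2bp genes; the 20 leading genes of knockout members; the 10 highest and 10 lowest ratios by the interval bound nearest 0 among genes at least 2-fold above the other barcodes of their library; and up to 6 members of each of 27 lists with most knockout UMIs. The members, the lists and the rule were chosen with earlier results of these data known. The split by Actg2, the split by depth, the rankings within the split sets and further genes named from them were chosen after the values were seen. Alternatives used edgeR 4.0.16 (TMM) and DESeq2 1.42.0 (size factors) for scaling, other limits, equal weights per barcode, and subtraction of the profile of the lowest 10% of barcodes by UMIs. Promoters came from RefSeq (GRCm38.p6) and gene positions from GENCODE M21. Actg2, Tagln and Myh11 promoters were not used here.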

Additional observations from a re-analysis of the deposited data

Results flagged for a closer look

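Contractile genes were also found in barcodes that the rule left out. Outside the members, 164 of 17664 knockout barcodes within the mitochondrial limit (0.928%, 0.792 to 1.08) held at least 5 UMIs of Acta2, Myh11, Tagln and Myl9 together, against 5 of 16928 in wild type (0.0295%, 0.00959 to 0.0689). In 161 of the 164 the contractile sum was under 20, and in 140 the Leydig sum was higher than the contractile sum. Their median depth was 12458 UMIs and their median spermatid share 4.996%, against 2088 UMIs and 3.35% in the 5 wild type barcodes, of which none had a higher Leydig sum. The highest sum of the 4 genes was 29 UMIs in the knockout and 47 in wild type.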

How the results depend on the processing

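The log2 ratio of the member share, −1.74 in the report, was −1.14 with a minimum of 1000 UMIs, −1.08 with at least 10 contractile UMIs and −2.35 with no spermatid limit. It was 0.41 (lower 95% limit −0.29) with the 7 genes at 1% of UMIs or more and, in an alternative chosen after seeing the data, 1.77 (lower limit 1.32) with Actg2 left out; in both the wild type count was 0 and was set to the floor of 3. Genes past 2-fold between knockout and wild type members numbered 710, and 5653 of 16392 with no UMI minimum, 131 of 4165 with at least 200 UMIs, 1904 with each barcode weighed equally and 2483 with free RNA subtracted. The median log2 ratio of the other contractile genes, 1.12 over 8 genes, was 4.15 over 23 with no UMI minimum, 2.88 with equal weights, 1.78 with free RNA subtracted and, chosen after seeing the data, 0.11 over 5 within Actg2-led barcodes. Basement membrane genes gave no value, since none of them reached 50 UMIs. The share of knockout members with more Leydig than contractile UMIs went from 28.2% to 10.3% without the 3 Leydig genes highest in free RNA. Of the named genes Actg2 changed sign, from −0.13 to 0.04 without the barcodes with more Leydig than contractile UMIs and to 0.04 within Actg2-led barcodes, and no other named gene did. The alternative of 1% of UMIs gave no ratio for genes, since wild type held 0 such barcodes. The cause of these shifts was not tested. No paired analysis was possible because each genotype is 1 library. The depth of the 24 contractile-gene barcodes, 272819 UMIs in all, limits what can be said of receptors and signals.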
